A study of Mus musculus with 17 samples.

Results

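The AP-1 factors Fos, Fosb, Fosl2, Jun, Junb and Jund and the related factor Atf3 were followed in mouse macrophages with and without SOCS3, before and after interleukin-6 (IL-6). The members were the probe sets that the array's annotation assigns to 1 gene symbol only, that symbol being one of these 7. The 7 genes are among 8252 with such a probe set, and their probe sets were 11 of the 12488 on the array: 1 each for Fosb, Fosl2, Jun and Jund, a pair each for Fos and Junb, and 3 for Atf3. Probe sets entered the tests if 2 or more arrays read them above the 40th percentile of the array, and 9 of the 11 did. Fos 161716_at and Atf3 161645_r_at reached that percentile on 0 of the 17 arrays, so each gene still had at least 1 tested probe set.

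SOCS3 is a feedback inhibitor of gp130, the receptor subunit through which IL-6 signals. The tested cells, called KO, were macrophages grown from bone marrow of irradiated mice whose blood system had been rebuilt with fetal liver cells of SOCS3-/- embryos. The macrophages called WT came in the same way from SOCS3+/+ embryos, so both genotypes passed through an irradiated host. The 6 groups were KO cells unstimulated and after 100 and 400 min with IL-6 at 10 ng/ml (3 arrays each), and WT cells unstimulated (2 arrays) and after 100 and 400 min with the same dose (3 arrays each). The labels do not say whether replicates were separate cultures, mice or transplants, so the p-values measure only the spread between these arrays, which may be technical. The RNA is of whole cultures, in which fewer cells of a type and less RNA per cell cannot be told apart.

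AP-1 is a dimer of basic leucine zipper proteins. Jun proteins pair with themselves or with Fos proteins, while Fos proteins need a Jun partner to bind DNA, and the dimers bind the TPA response element (TRE) and, more weakly, the cyclic AMP response element (CRE). Fos, Jun and Junb are immediate early genes, transcribed within minutes of a signal without new protein synthesis. Junb is a known early target of IL-6, Jun is activated by the JNK kinases and its product binds its own promoter, and Atf3 is a stress-induced repressor of inflammatory genes in macrophages.

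Promoter sequences are shown for Fos, Jun and Junb because these 3 genes carry the differences described here. Each is the 250 bases before the annotated start in RefSeq (build GRCm38.p6), written 5′ to 3′ on the gene's strand. Capitals mark matches, on either strand, to any of 5 motifs searched: TGACG (the first bases of a CRE), TGACGT (the CRE core, which contains the first motif), TGANTCA (a TRE), TGACATCA (the variant TRE of the Jun promoter) and TTCNNNGAA (a STAT site). The Fos stretch is chr12:85473640-85473889 on the plus strand, the Jun stretch is chr4:95052223-95052472 on the minus strand and the Junb stretch is chr8:84978749-84978998 on the minus strand.
Fos: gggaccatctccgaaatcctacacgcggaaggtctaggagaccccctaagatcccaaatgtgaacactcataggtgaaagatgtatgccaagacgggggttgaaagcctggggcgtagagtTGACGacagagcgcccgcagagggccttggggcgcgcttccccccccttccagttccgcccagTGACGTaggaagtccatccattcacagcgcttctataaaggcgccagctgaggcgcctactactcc
Jun: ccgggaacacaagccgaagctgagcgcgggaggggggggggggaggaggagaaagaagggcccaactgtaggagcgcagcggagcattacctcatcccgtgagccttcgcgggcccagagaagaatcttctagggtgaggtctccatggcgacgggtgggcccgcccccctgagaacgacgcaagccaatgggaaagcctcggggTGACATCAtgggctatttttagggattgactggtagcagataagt
Junb: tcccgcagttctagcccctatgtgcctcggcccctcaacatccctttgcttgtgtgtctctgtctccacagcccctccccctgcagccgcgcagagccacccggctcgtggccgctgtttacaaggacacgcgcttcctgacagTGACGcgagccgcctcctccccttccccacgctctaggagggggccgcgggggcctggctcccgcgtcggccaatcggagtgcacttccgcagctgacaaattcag

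Fos held TGACGT from 66 bases before the start and a second TGACG from 129 bases before it. Junb held 1 TGACG, from 106 bases before the start; an IL-6 response element with a CRE-like site and an Ets site has been described in the Junb promoter. Jun held TGACATCA from 45 bases before its start and none of the other motifs. Outside these genes, Fosb had TGACG and Atf3 had TGACGT, while Fosl2 and Jund had no match to any of the 5. TGACG stood in 4 of the 7 promoters, against 17.8% of 32851 mouse promoters of the same length. TGACGT stood in 2 of the 7, against 6.47%, and TGACATCA in 1 of the 7, against 2.93%. TGANTCA and TTCNNNGAA stood in 0 of the 7 windows, against 6.75% and 7.02% of all promoters. A match is only these letters in this window and does not show that a factor binds there.

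Socs3, the gene removed, was read first as a check of the labels. Its deposited intensity on the probe set 92232_at was 14.9 to 160.2 on 8 of the 9 KO arrays. The 6 stimulated WT arrays read 429.5 to 2647.6 and the 2 unstimulated WT arrays 72.9 to 110.7. Of those 8 KO arrays, the unstimulated read 14.9 to 28.8 and those at 100 min 77.6 to 160.2. At 400 min replicates 1 and 2 read 45.2 and 77.4, so a low signal was higher after IL-6 in KO as well. The lowest of the stimulated WT values was that of WT 100 min replicate 3, and the other stimulated WT arrays read at least 1911. On the array labelled KO 400 min replicate 3, 92232_at read 883.7. The other Socs3 probe set, 162206_f_at, read 784.3 there, against 29.8 to 319.7 on the other KO arrays. The called differences and the Jun differences that use that array are therefore given with and without it. Xist ran from 220.5 to 1010.0 in KO arrays and from 10.7 to 214.3 in WT arrays. The Y-linked Eif2s3y ran from 6.2 to 121.5 in KO and from 252.2 to 783.3 in WT. Neither gene overlapped between the genotypes, so in every comparison of KO with WT the genotype cannot be told apart from a difference in the sex of the cells. The array labelled KO 400 min replicate 3 read Xist at 426.4 and Eif2s3y at 87.2, within the ranges of the other KO arrays. The reason for its Socs3 level was not tested. The replicate 3 arrays stood apart. On the first principal component 4 of the 5 lay at -58.1 to -26.6, that of KO 400 min at -0.89, and the arrays of replicates 1 and 2 lay at -2.27 to 30.3. The summed normalized level of the 26 cell cycle genes on the array was 46439 to 81699 on replicate 3 arrays, against 35283 to 45208 on the others, and that of the 18 macrophage markers was 171108 to 211002, against 219681 to 250334. That of 14 neutrophil and precursor markers was 1760.2 to 2411 on replicate 3 arrays, against 2691 to 3651. Of these macrophage markers, 15 lay above the 40th percentile on all 17 arrays (Marco did so on 0). Of 14 T and NK cell markers, Cd3e and Cd8a did so on 0 arrays, Cd28 on 14 and Cd4 on 16, and the others on 1 to 10.

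In the Fos family, Fos fell in KO cells after 400 min of IL-6, and Fosl2 and Fosb passed no test. Fos was measured by probe set 160901_at, and levels here are quantile normalized intensities. In KO cells Fos stood at 1204.3, 991.4 and 728.4 unstimulated (replicates 1, 2 and 3), at 360.6, 244.1 and 429.9 after 100 min of IL-6, and at 202.5, 191.3 and 286.1 after 400 min. In WT cells it stood at 705.7 and 625.0 unstimulated, at 408.9, 420.3 and 1104.3 after 100 min, and at 338.9, 310.6 and 984.7 after 400 min. All stimulated KO arrays lay below all unstimulated KO arrays. Of all tested probe sets, 5.66% at 100 min and 9.1% at 400 min lay lower in KO without overlap. In WT the replicates 1 and 2 lay below the unstimulated arrays while replicate 3 lay above them at both times.

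Fos fell in KO cells at 400 min against unstimulated, by 2.10 on the log2 scale (SE 0.46, limma adjusted p = 0.0357). At 100 min the KO difference was -1.51 (SE 0.46, adjusted p = 0.35), which did not pass. In WT cells the difference was -0.50 at 400 min (adjusted p = 0.966) and -0.21 at 100 min (adjusted p = 0.971). The difference between the KO and the WT response was -1.60 at 400 min (95% interval -3.09 to -0.10, adjusted p = 0.899), so a different response was not shown after adjustment.

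Marker sums of other cells moved with the differences in KO at 400 min. The summed level of 10 B cell markers was 2652 to 2832 in KO at 400 min, against 3024 to 6580 in unstimulated KO, and 4051 to 5506 in WT at 400 min, against 7517 to 8646 in unstimulated WT. Between 5 and 7 of these 10 lay above the 40th percentile in KO at 400 min, against 6 to 8 in unstimulated KO; Ighm, the immunoglobulin heavy chain, alone ran from 614.8 to 5860 over the arrays, and Ebf1 lay above it on 0 arrays. The sum of 9 dendritic cell markers was 3616 to 4091 in KO at 400 min, against 1574 to 3297 in unstimulated KO, with 6 to 8 against 5 to 7 above the percentile. Marker sums without overlap in that comparison were also those of 10 mast cell and basophil markers (1692 to 1858, against 1273 to 1618) and 7 erythroid and megakaryocyte markers (1157.2 to 1747, against 846.6 to 1156.5). The sum of 12 heat shock and handling genes, which are not cell markers, lay apart too (33511 to 36238, against 27138 to 31528). In it Hmox1 alone had a mean of 12372 in KO at 400 min, against 6531 in unstimulated KO. Hspa1b of the same list went the other way, with 196 against 1099. Of the 10 mast cell and basophil markers, 3 lay above the 40th percentile in KO at 400 min, against 3 to 4 in unstimulated KO. Of the 7 erythroid and megakaryocyte markers, 4 to 5 did, against 2 to 4. The sums of the macrophage, neutrophil, T and NK, and fibroblast lists overlapped. The part of these cells in the Fos and Junb differences was not tested.

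The replicate 3 arrays gave a smaller KO difference of Fos. Within replicates 1 and 2 Fos was lower by a log2 difference of -2.47 in KO and of -1.03 in WT at 400 min, and within replicate 3 the KO difference was -1.35. WT has no unstimulated replicate 3. Without the array labelled KO 400 min replicate 3 the KO difference at 400 min was -2.28 (adjusted p = 0.0506). The call was also lost without any 1 of the other unstimulated or 400 min KO arrays, at -1.93 to -2.29 (adjusted p of at most 0.134), and without either unstimulated WT array (adjusted p = 0.0523). It was kept in 17 of 26 other fits, among them replicate 3 as a batch block (limma adjusted p = 0.00857) and replicates 1 and 2 alone (0.00216). Within replicates 1 and 2 the 100 min difference was -1.88 in KO (adjusted p = 0.0098) and -0.68 in WT. With the batch block the KO difference at 100 min did not pass (adjusted p = 0.12). The lowest group mean was 226.6 ± 51.8 in KO at 400 min and the highest was 974.7 ± 238.4 in unstimulated KO (SD, n = 3 each). The unstimulated KO arrays lay above both unstimulated WT arrays (665.4 on average), as did 11.6% of all tested probe sets. Every further pair of neighbours in the order of the group means overlapped.

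The second Fos probe set, 161716_at, stayed between 7.5 and 97.4 and was at or under the floor of 22.0 on 5 arrays. Its log2 values had a correlation of 0.04 with those of the first over the 17 arrays, so the Fos result rests on 1 probe set.

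Fosl2 (Fra-2), a Fos family member that lacks a strong activation domain, stood in KO cells at 150.0, 27.6 and 177.7 unstimulated, at 170.8, 206.7 and 163.6 after 100 min and at 276.5, 283.9 and 184.0 after 400 min. In WT cells it stood at 187.5 and 127.8 unstimulated, at 232.2, 192.1 and 210.7 after 100 min and at 223.4, 234.7 and 234.7 after 400 min. The 400 min arrays lay above the unstimulated arrays in both genotypes, as did 8.53% of all tested probe sets in KO and 10.7% in WT. The log2 difference at 400 min was 1.43 in KO (SE 0.52, adjusted p = 0.247) and 0.58 in WT (SE 0.58, adjusted p = 0.966), and neither passed. The KO value rests on the array at 27.6: within replicates 1 and 2, which hold it, the KO difference was 2.12, and within replicate 3 it was 0.05.

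Fosb, a further Fos protein that is induced transiently by many signals, had means of 246.2 ± 80.8 in unstimulated KO, 301.0 ± 82.9 in KO at 100 min and 247.1 ± 114.7 in KO at 400 min, against 223.8 ± 54.2, 208.1 ± 56.3 and 188.7 ± 139.1 in WT at the same times (SD, n = 2 for unstimulated WT and 3 for the other groups). Every pair of neighbouring groups overlapped, and no comparison passed. The 95% interval of the KO difference at 400 min ran from -1.18 to 1.03.

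**Figure D1:**
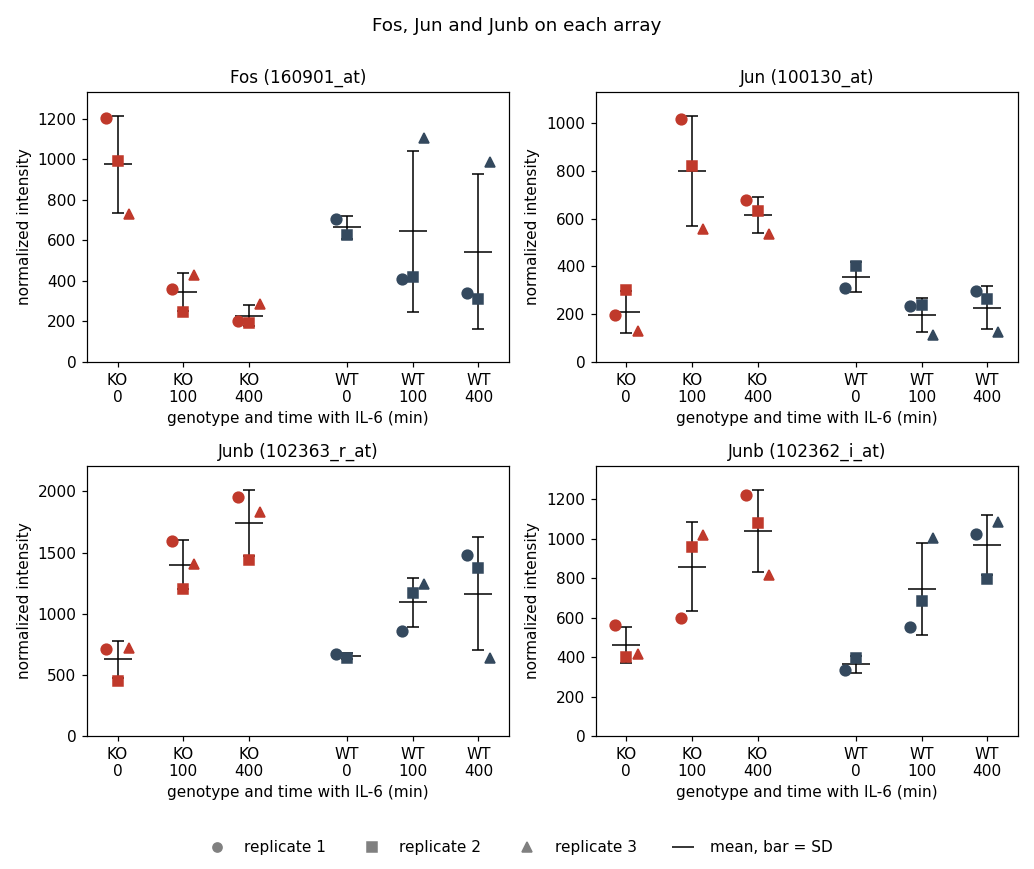
Quantile normalized intensity of Fos, Jun and both Junb probe sets on each of the 17 arrays, by genotype and time with IL-6 in minutes; symbols mark replicates 1 to 3, horizontal lines the group mean and bars the SD. Fos stands lower and Jun and Junb stand higher after IL-6 in KO, while in WT the Fos symbols of replicate 3 stand apart at 1104.3 and 984.7.

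Jun, the founding partner of the dimer, was the member whose level differed most between the stimulated genotypes. In KO cells Jun (100130_at) stood at 198.3, 301.9 and 129.3 unstimulated, at 1017.2, 820.0 and 557.8 after 100 min of IL-6 and at 679.3, 630.0 and 533.9 after 400 min. In WT cells it stood at 310.5 and 400.2 unstimulated, at 234.1, 238.7 and 112.2 after 100 min and at 295.0, 263.7 and 123.7 after 400 min. All 6 stimulated KO arrays lay above every other array, and the WT arrays after IL-6 all lay below the 2 unstimulated WT arrays. Of all tested probe sets, 11.3% at 100 min and 11.2% at 400 min also lay lower in WT without overlap. In KO, 5.68% and 8.53% lay higher than unstimulated KO without overlap.

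The Jun difference against unstimulated KO was 1.97 at 100 min (SE 0.41, 95% interval 1.08 to 2.86), and it narrowly missed the threshold after adjustment over all probe sets (adjusted p = 0.0525). At 400 min it was 1.63 (SE 0.41, adjusted p = 0.0675). In WT the differences were -0.93 at 100 min (95% interval -1.93 to 0.06, adjusted p = 0.82) and -0.73 at 400 min (adjusted p = 0.889). KO against WT, Jun differed by 2.07 at 100 min (SE 0.41, adjusted p = 0.127), by 1.52 at 400 min (SE 0.41, adjusted p = 0.192) and by -0.83 unstimulated (adjusted p = 0.862). No overlap of KO with WT was seen for 1 of the 9 members at 100 min (Jun; the share over all tested probe sets was 9.17%) and for 2 of the 9 at 400 min (Jun and Fos; 14.8% over all tested). Marker sums without overlap between the genotypes were those of the T and NK list at 100 min (1114 to 1428 in KO, 1496 to 1554 in WT) and the fibroblast list at 100 min (2346 to 2693 in KO, 2742 to 3107 in WT). At 400 min they were those of the B cell list (2652 to 2832 in KO, 4051 to 5506 in WT), the dendritic cell list (3616 to 4091 in KO, 3054 to 3459 in WT) and the erythroid list (1157.2 to 1747 in KO, 790.5 to 1110.5 in WT); their part in the Jun difference was not tested.

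The Jun differences had the same sign in both replicate sets. At 100 min the KO difference was 1.90 within replicates 1 and 2 and 2.11 within replicate 3, and at 400 min it was 1.42 and 2.05. KO against WT the difference at 100 min was 1.95 within replicates 1 and 2 and 2.31 within replicate 3, and at 400 min it was 1.23 and 2.11. The WT differences were smaller without the WT replicate 3 arrays, at -0.58 at 100 min and -0.34 at 400 min within replicates 1 and 2. The replicate 3 array was the lowest in all 5 groups that have one, by 0.83 on average on the log2 scale against replicates 1 and 2. With replicate 3 as a batch block, KO against WT passed at both times (adjusted p = 0.00341 at 100 min and 0.00931 at 400 min), as did the KO responses (adjusted p = 0.00115 and 0.00246). Without the array labelled KO 400 min replicate 3, the KO difference at 400 min was 1.73 (adjusted p = 0.104), and KO against WT it was 1.62 (adjusted p = 0.225). The KO difference at 100 min passed in only 3 of the 17 fits that left out 1 array, at 1.66 to 2.28 over all 17. These were the fits without KO 100 min replicate 3 (adjusted p = 0.0472), WT 100 min replicate 3 (0.0302) or WT 400 min replicate 3 (0.0295). The KO difference at 400 min passed in 2 of the 17, at 1.32 to 1.93. KO against WT, Jun passed in 0 of the 17 at 100 min (1.71 to 2.31) and in 0 at 400 min (1.13 to 1.76).

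Junb, a Jun protein that often opposes Jun on growth genes, is read by 102363_r_at and 102362_i_at. The suffixes are the manufacturer's marks for probe sets with fewer or partly shared probes, and the values of the pair had a correlation of 0.71 over the 17 arrays. On 102363_r_at, Junb stood in KO cells at 711.1, 451.0 and 721.4 unstimulated, at 1596.3, 1203.4 and 1406.0 after 100 min and at 1950.8, 1438.6 and 1830.0 after 400 min. In WT cells it stood at 671.2 and 636.1 unstimulated, at 860.6, 1170.7 and 1244.0 after 100 min and at 1483.6, 1373.0 and 637.1 after 400 min. Every stimulated KO array exceeded every unstimulated KO array, and in WT 5 of the 6 stimulated arrays exceeded both unstimulated ones; WT 400 min replicate 3 lay between them.

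On 102362_i_at Junb stood in KO cells at 564.9, 400.0 and 413.6 unstimulated, at 598.5, 959.8 and 1018.2 after 100 min and at 1221.6, 1078.0 and 814.0 after 400 min. In WT cells it stood at 333.4 and 395.3 unstimulated, at 550.5, 684.2 and 1005.3 after 100 min and at 1025.8, 797.8 and 1082.2 after 400 min. On this probe set all 6 stimulated arrays of each genotype exceeded the unstimulated arrays of that genotype, WT 400 min replicate 3 included.

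Junb rose in KO cells at 400 min on 102363_r_at, by 1.49 (SE 0.32, limma adjusted p = 0.0304). The same comparison on 102362_i_at gave 1.17 (SE 0.29, adjusted p = 0.0586), and it passed with replicate 3 as a batch block (adjusted p = 0.0439), as did 102363_r_at (adjusted p = 0.0237). With Fos, that makes 2 of the 9 member probe sets called in KO at 400 min, against 1.82% of the 9871 probe sets tested, with 1 higher (1.2% of all tested) and 1 lower (0.628%). Taking KO and WT together, Junb rose at 400 min on both probe sets, by 1.12 (SE 0.24, adjusted p = 0.0321) and by 1.29 (SE 0.22, adjusted p = 0.00856). These 2 of the 9 member probe sets, against 1.5% of all tested, read the same gene. In WT alone the differences at 400 min were 0.74 (adjusted p = 0.794) and 1.40 (adjusted p = 0.266), with 0 of 9 members called, against 0.0101% of all tested.

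At 100 min the KO differences of Junb were 1.18 (adjusted p = 0.208) and 0.88 (adjusted p = 0.406), and 0 of the 9 members passed, against 0.577% of all tested. The KO and WT responses of Junb at 400 min differed by 0.75 on 102363_r_at (adjusted p = 0.927) and by -0.23 on 102362_i_at (adjusted p = 0.97), so the pair of probe sets gave opposite signs and neither passed. KO against WT at 400 min the difference on 102363_r_at was 0.23 within replicates 1 and 2 and 1.52 within replicate 3. The call of the KO rise on 102363_r_at was lost without any 1 of the unstimulated or 400 min KO arrays, at 1.27 to 1.62 (highest adjusted p = 0.137). Without the array labelled KO 400 min replicate 3, that difference was 1.45 on 102363_r_at (adjusted p = 0.0762) and 1.34 on 102362_i_at (adjusted p = 0.0592), and the average over genotypes was 1.09 (adjusted p = 0.0547) and 1.37 (adjusted p = 0.00966). The average on 102363_r_at was lost in 9 of the 17 fits that left out 1 array (highest adjusted p = 0.133), while that on 102362_i_at passed in all 17 (highest adjusted p = 0.047).

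**Figure D2:**
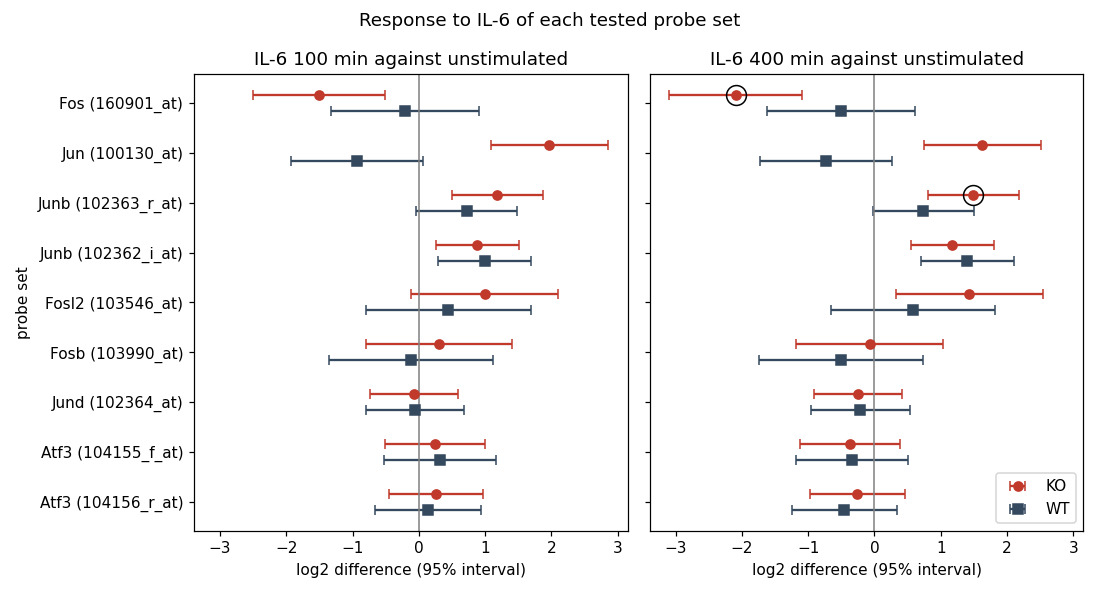
Log2 difference of each tested member probe set after IL-6 against unstimulated cells of the same genotype, at 100 min (left) and 400 min (right), with its 95% interval; red circles are KO, blue squares WT, and open black rings mark an adjusted p under 0.05. Jun has its KO interval above 0 and its WT estimate below 0 at both times, while the 2 rings stand at -2.10 for Fos and 1.49 for Junb.

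**Figure D3:**
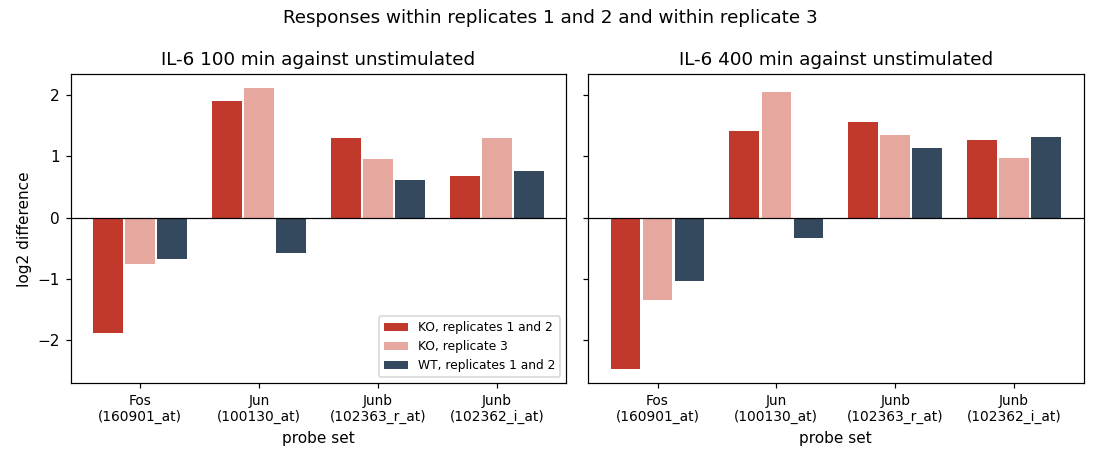
Log2 difference after IL-6 against unstimulated cells for Fos, Jun and Junb, computed within replicates 1 and 2 and, for KO, within replicate 3, at 100 min (left) and 400 min (right). The KO bars of Jun and Junb point up and those of Fos point down in both replicate sets; WT has no unstimulated replicate 3.

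Jund, which most cells express at a constant level, stood between 7558 and 18425 on the 17 arrays. Its means were 12732 ± 4984 in unstimulated KO, 11655 ± 2140 in KO at 100 min and 10180 ± 341 in KO at 400 min, against 11701 ± 1050 in unstimulated WT, 11642 ± 3647 in WT at 100 min and 10228 ± 2225 in WT at 400 min (SD, n = 2 for unstimulated WT and 3 for the other groups). All neighbouring groups overlapped. The interval of the difference against unstimulated cells was -0.92 to 0.41 in KO and -0.96 to 0.53 in WT at 400 min, and KO against WT at 100 min it was -0.63 to 0.70. None of these intervals reaches the KO rise of Junb at 400 min, and each leaves room for smaller changes.

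Atf3 was read on 104155_f_at and 104156_r_at, whose values had a correlation of 0.93 over the arrays. Both carry such suffixes of the manufacturer too, so the correlation does not show that each reads Atf3 alone. On 104155_f_at it stood in KO cells at 4413.8, 3833.4 and 2212.5 unstimulated, at 5546.5, 5208.4 and 2136.0 after 100 min and at 2961.2, 2947.2 and 1981.8 after 400 min. In WT cells it stood at 3326.7 and 3516.9 unstimulated, at 4260.8, 4598.4 and 3935.9 after 100 min and at 2929.6, 2543.6 and 2674.6 after 400 min. In WT the order was 100 min, unstimulated, 400 min with no overlap between the times. Of all tested probe sets, 10.7% lay higher at 100 min and 11.2% lower at 400 min than unstimulated WT without overlap. Between the stimulated WT groups, 5.7% lay lower at 400 min than at 100 min without overlap. The KO replicates 1 and 2 had the same order as WT, while KO replicate 3 was low throughout. On 104156_r_at, WT at 100 min (1606.3, 1841 and 1779) overlapped unstimulated WT (1550.1 and 1607.6), so the order was not repeated there without overlap. No comparison passed: at 400 min against 100 min the log2 difference was -0.61 in KO (adjusted p = 0.669) and -0.65 in WT (adjusted p = 0.827), and KO and WT differed at 100 min by -0.11 (95% interval -0.86 to 0.65).

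On 104156_r_at the means of Atf3 at 100 min were 1878 ± 886 in KO and 1742 ± 122 in WT, and at 400 min 1191 ± 45.3 in KO and 1155 ± 75.3 in WT (SD, n = 3 each). The difference at 400 min against 100 min was -0.52 in KO and -0.59 in WT. The third Atf3 probe set, 161645_r_at, lay between 11.6 and 73.1 and was at or under the floor on 11 arrays.

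**Figure D4:**
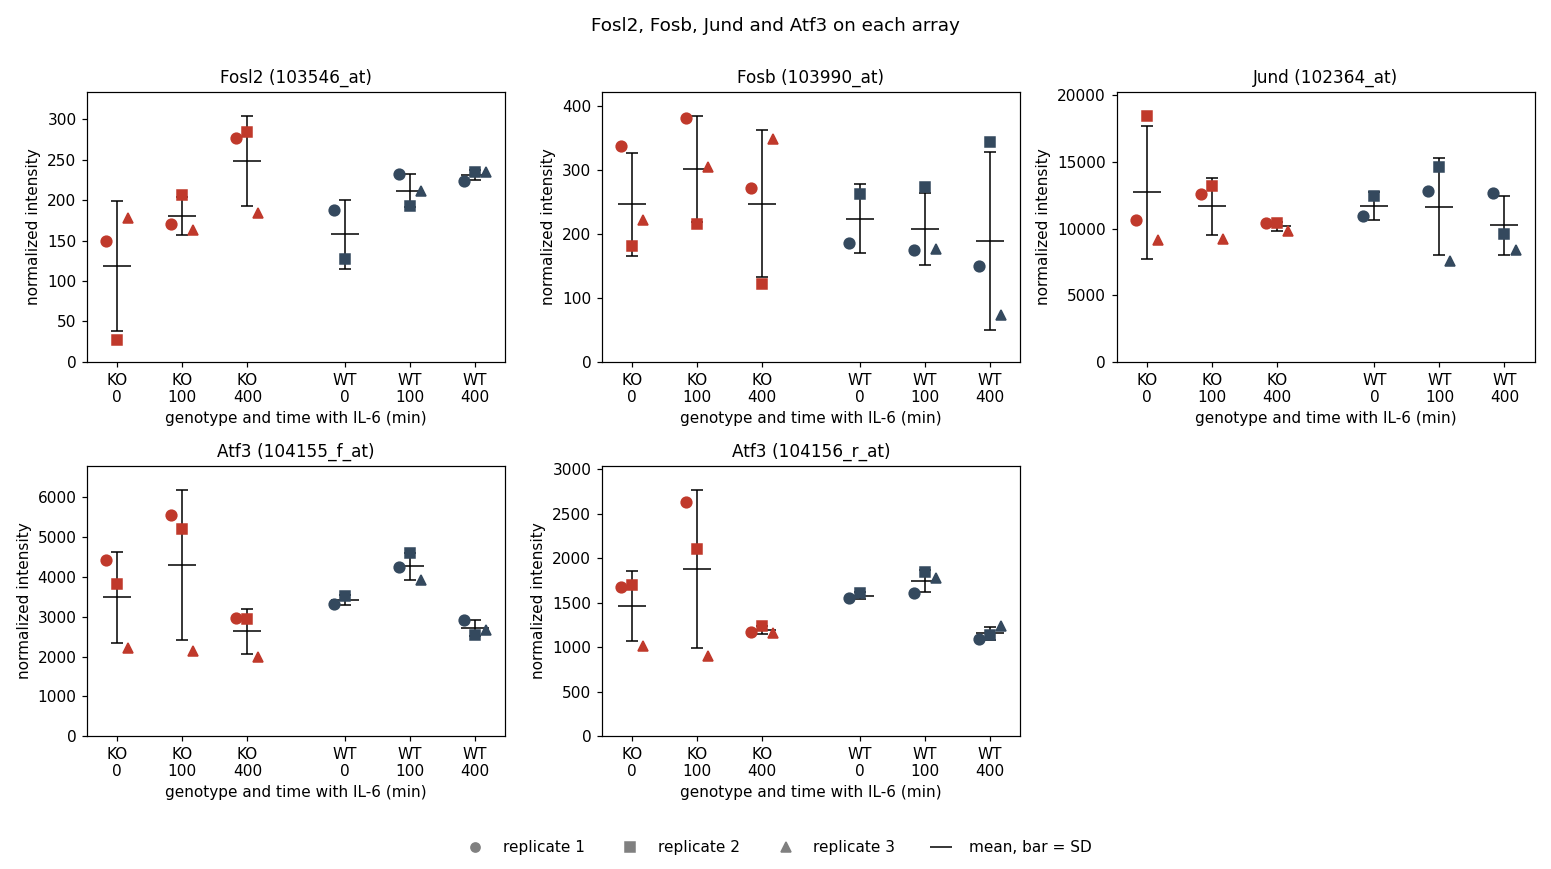
Quantile normalized intensity of Fosl2, Fosb, Jund and 2 Atf3 probe sets on each array, by genotype and time with IL-6 in minutes; symbols mark replicates, lines the mean and bars the SD. The unstimulated KO array at 27.6 sets the Fosl2 spread, and the KO replicate 3 arrays of Atf3 lie lowest on 104155_f_at.

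Few comparisons of the members passed. Across the 9 tested probe sets the median difference was 0.30 in KO at 100 min and -0.07 in KO at 400 min, against -0.04 and -0.04 over all probe sets. In WT it was 0.14 and -0.34, against -0.01 and -0.01. KO against WT, 0 of 9 members passed unstimulated (0% of all tested), at 100 min (0.0405%) and at 400 min (0.365%), and 0 of 9 passed for the difference between the responses (0% at each time), for KO against WT averaged over the times (0.446%), for 100 min averaged over genotypes (0.628%) or for 400 min against 100 min in either genotype (0%). At an unadjusted p under 0.05 the response difference had 1 member (Jun) at 100 min and 2 (Jun and Fos) at 400 min, against 3.66% and 5.38% of all tested. By the same unadjusted rule KO at 100 min had 4 members (6.17% of all tested) and at 400 min 5 (12.2%), WT had 1 at 100 min (6.12%) and 1 at 400 min (6.26%), and KO against WT had 0 unstimulated (5.99%), 1 at 100 min (4.89%), 2 at 400 min (8.71%) and 1 averaged over the times (10.9%). The average over genotypes had 3 at 100 min (8.51%) and 4 at 400 min (11.9%), and 400 min against 100 min had 0 in KO (9.03%) and 0 in WT (6.3%). In KO at 400 min, 5 of the 9 members had no overlap with unstimulated cells, against 17.6% of all tested. These were Fos, Fosl2, Jun and both Junb probe sets. The count was 4 of the 9 in KO at 100 min (11.3% of all tested). In WT it was 5 of the 9 at 100 min and 5 at 400 min (22% of all tested each), so it was not particular to KO.

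The within-group SD of log2 values was 0.59 for Fos, 0.52 for Jun, 0.38 and 0.33 for Junb, 0.36 for Jund and 0.67 for both Fosb and Fosl2, against a median of 0.54 over all tested probe sets. Replicate 3 read lower than replicates 1 and 2 in 5 of 5 groups for Jun, Jund and Atf3 on 104155_f_at, by 0.83, 0.49 and 0.60 on average, and higher in 4 of 5 groups for Fos, by 0.70. The ratio of the 3′ to the 5′ Gapdh control probe sets was 0.765 to 0.926 on replicate 3 arrays, against 0.894 to 2.87 on the others, and the part of this ratio and of the cell cycle and marker sums in these values was not tested.

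Over the 17 arrays the log2 values of Fos had a correlation of -0.74 with Jun, and with Junb of -0.77 on 102363_r_at and of -0.49 on 102362_i_at. The genes whose log2 values followed Fos best, among 7062 other genes, were Txnip, a thioredoxin-binding protein (r = 0.90), Rgs2, a regulator of G protein signalling (r = 0.86), and Mef2a, a MADS-box factor (r = 0.85). Jun was followed best by Irf1, an interferon regulatory factor (r = 0.89), the chemokine Ccl4 (r = 0.83) and Socs1, a relative of Socs3 (r = 0.83). Junb was followed by Mcoln2 and Pim1 (r = 0.84 each) and Dab2 (r = 0.83) on 102363_r_at, and by Muc1 (r = 0.86), Atp7a (r = 0.84) and Pik3cd (r = 0.81) on 102362_i_at. Fosl2 was followed best by Birc2 (r = 0.90), Jund by Hint2 (r = 0.89), Fosb by Nnt (r = 0.74) and Atf3 by Anxa5 on 104155_f_at (r = 0.84) and Fbxo3 on 104156_r_at (r = 0.81). These correlations share the same 17 arrays, their groups and their replicate sets, and they are descriptions only.

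Over all 9871 tested probe sets, 0.537% rose and 0.0405% fell in KO at 100 min. In KO at 400 min 1.2% rose and 0.628% fell. In each list of 29 to 37 genes 1 gene is a larger share than any of these. The lists were chosen with earlier results of these data known, so their counts beside these shares are descriptions only. Of 29 other bZIP factors tested, the wider family of AP-1, 1 rose and 1 fell in KO at 100 min, and 0 rose and 1 fell in KO at 400 min. Cebpa, a factor of myeloid differentiation, fell by 1.26 at 100 min (SE 0.24, adjusted p = 0.0301) and fell by 1.65 at 400 min (SE 0.24, adjusted p = 0.00362), with means of 3150 ± 492 in unstimulated KO, 1319 ± 289 at 100 min and 1010 ± 226 at 400 min. Cebpd, a known IL-6 target, rose by 1.30 at 100 min (SE 0.27, adjusted p = 0.0468). Bach1, a repressor that pairs with small Maf proteins, rose by 1.26 at 100 min over both genotypes (adjusted p = 0.0482). The list median was -0.05 at 100 min and 0.08 at 400 min in KO, against -0.04 and -0.04 over all probe sets.

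Of 37 tested genes of the MAP kinase cascades and AP-1 regulation, 1 rose and 0 fell in KO at 100 min, and 1 rose and 2 fell in KO at 400 min. Map3k8 (Tpl2), a kinase upstream of ERK in macrophages, rose by 1.66 at 100 min (SE 0.33, adjusted p = 0.0376). Gab1, an adaptor that links gp130 to the ERK cascade, rose by 2.38 at 400 min (SE 0.35, adjusted p = 0.00362), with a level of 650 ± 213 at 400 min in KO and 120.0 ± 15.0 in unstimulated KO. The p38 kinase Mapk14 fell by 1.06 (SE 0.25, adjusted p = 0.0444) and the ERK5 activator Map2k5 fell by 0.98 (SE 0.21, adjusted p = 0.0307). The list medians in KO were 0.02 and 0.14.

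Of 34 other immediate early genes tested, 3 rose and 0 fell in KO at 100 min, and 4 rose and 1 fell in KO at 400 min. Gadd45g, a stress sensor, rose by 3.23 at 100 min (adjusted p = 0.00193) and by 2.94 at 400 min (adjusted p = 0.00198). Zfp36 (tristetraprolin), which destabilises cytokine mRNAs, rose by 2.03 and 1.94 (adjusted p = 0.0131 and 0.0101). Myc, a growth regulator, was also called at both times (adjusted p = 0.0403 and 0.02), but it lay above the 40th percentile on 2 arrays only. Its level was 117.8 ± 22.9 at 100 min and 119.7 ± 19.0 at 400 min in KO, against 17.1 ± 10.6 in unstimulated KO (SD, n = 3 each), under the floor, so no fold is given. Ier3, an early survival gene, rose by 2.38 at 400 min (adjusted p = 0.00754), while Rgs2 fell by 2.35 (adjusted p = 0.0432). Bcl3, a nuclear IkB protein, rose by 1.62 at 100 min over both genotypes (adjusted p = 0.0388). The list medians in KO were 0.06 and 0.02.

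Of 37 tested genes with reported AP-1 sites, 3 rose and 0 fell in KO at 100 min, and 5 rose and 0 fell in KO at 400 min. The chemokines Ccl4 and Ccl2 rose by 2.64 and 4.74 at 100 min (adjusted p = 0.00193 and 0.0301), and the metallothionein Mt2 rose by 1.26 (adjusted p = 0.00585). At 400 min these rose by 2.66, 4.67 and 1.37, and Timp1, an inhibitor of metalloproteinases, rose by 2.02 (adjusted p = 0.0104). The cytokine gene Il1b was the fifth call at 400 min (adjusted p = 0.0419), with a level of 179.7 ± 48.9 in KO at 400 min, against 21.9 ± 8.31 in unstimulated KO (SD, n = 3 each). The unstimulated level lies at the floor and Il1b passed the 40th percentile on 6 arrays, so no fold is given. KO against WT at 100 min, Ccl4 was higher by 2.50 (adjusted p = 0.0109), 1 of 37 with 0 lower, against 0.0304% and 0.0101% of all tested. KO against WT at 400 min, Ccl4 (1.98), Timp1 (1.84) and Ccl2 (4.60) were higher, 3 of 37 with 0 lower (adjusted p = 0.0181, 0.045 and 0.0494), against 0.314% and 0.0507% of all tested. Because the list was chosen with earlier results of these data known, these counts do not test whether genes with AP-1 sites are called more often. Mmp12, a macrophage elastase, was higher by 2.61 in KO averaged over the times (adjusted p = 0.0219) and Hmox1, heme oxygenase, by 1.00 at 400 min averaged over genotypes (adjusted p = 0.0194). The list medians were 0.20 and 0.33 in KO at 100 and 400 min, against -0.04 and -0.04 over all probe sets. In WT alone 0 genes of these 4 lists passed limma's test at either time. At an unadjusted p under 0.05, WT at 400 min had 1 higher and 1 lower among the bZIP factors, 2 and 2 in the MAP kinase list, 5 and 1 among the immediate early genes and 3 and 2 among the genes with AP-1 sites, against 3.53% higher and 2.74% lower over all tested probe sets.

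Among the genes of the integrated stress response, which include targets of Atf4 upstream of Atf3, 0 of 21 tested passed in KO or in WT. At an unadjusted p under 0.05, 4 were higher and 0 lower in KO at 400 min (5.88% and 6.3% of all tested), and 0 in either direction in WT at 400 min. Of 11 heat shock and handling genes, Hspa1b, an inducible HSP70, fell by 2.64 in KO at 400 min (SE 0.60, adjusted p = 0.0417), with 195.8 ± 130.7 at 400 min and 1099 ± 291 in unstimulated KO. Its means in WT were 712 ± 303 at 400 min and 1980 ± 522 unstimulated. Of 17 macrophage markers tested, Fcgr1, the high-affinity IgG receptor, rose by 1.96 in KO at 400 min (adjusted p = 0.0168).

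Without the array labelled KO 400 min replicate 3, the list genes named for KO at 400 min passed with the same sign, except Map2k5 (-0.86, adjusted p = 0.0892), Rgs2 (-2.15, adjusted p = 0.12) and Il1b (adjusted p = 0.116). KO against WT at 400 min, Timp1 no longer passed (1.91, adjusted p = 0.065), while Ccl4 (1.78, adjusted p = 0.0421) and Ccl2 (5.27, adjusted p = 0.0323) did. Mmp12 averaged over the times and Hmox1 averaged over genotypes passed without it (adjusted p = 0.0305 and 0.0267). The array also enters the variance estimate of the other comparisons, and without it Cebpd (adjusted p = 0.0584) and Myc (0.052) in KO at 100 min and Bach1 at 100 min over both genotypes (0.0641) missed the threshold at the same differences.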

How the data were processed

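Total RNA of 17 samples was measured on 1 array each. The authors' deposited table holds 1 linear intensity per probe set; its mean after trimming 2% at each end was 500.3 to 500.4 on every array, so the deposited intensity had been scaled per array. The software and the background correction are not stated in the sources, and the table has no detection calls. The number of arrays limits the precision.

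Array medians (164.25 to 216.95) differed by 0.40 on the log2 scale, above a limit of 0.3, so the values were quantile normalized, floored at the 10th percentile of all values (22.0) and put on the log2 scale; the log2 values are computed here from the deposited intensity. A floored value understates a difference. The 66 control probe sets were left out. Of 12488 probe sets, 9871 passed the filter (above the 40th percentile on at least 2 arrays). The platform annotation gave 1 symbol to 10855, several to 396 and none to 1237. Tests used limma 3.58.1 (R 4.3.3, statmod 1.5.0) with 1 mean per group over 17 arrays and two-sided moderated tests, adjusted by Benjamini-Hochberg over all tested probe sets within each of 14 comparisons, and called at an adjusted p under 0.05. Comparisons of KO at 100 and 400 min share the unstimulated KO arrays, and those of WT the unstimulated WT arrays. The script was tested on simulated data.

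Gene lists had 1 probe set a gene, the one of the highest mean. Named genes are all members, the called genes of each list (at most 6, by adjusted p) and the 3 genes closest to each member by correlation. The members and lists were chosen with earlier results of these data known. There were 9 other settings and 17 fits without 1 array. Promoters are RefSeq's, matched by symbol for 7 of the 7 genes; protein sequences were not used here.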

Additional observations from a re-analysis of the deposited data

Results flagged for a closer look

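The estimated response of Jun (100130_at) to IL-6 had opposite signs in the genotypes, though neither genotype's response passed at either time in the reported fit. At 100 min all 3 KO arrays lay above all unstimulated KO arrays, and all 3 WT arrays lay below both unstimulated WT arrays, and the KO response exceeded the WT response by 2.90 on the log2 scale (SE 0.62, unadjusted p = 0.000374 in limma's fit, adjusted p = 0.787). At 400 min the arrays lay in the same way and the KO response exceeded the WT response by 2.36 (SE 0.62, adjusted p = 0.466). Of all tested probe sets, 11.3% at 100 min and 11.2% at 400 min lay lower in WT without overlap. In KO, 5.68% and 8.53% lay higher without overlap. The difference between the responses was tested at both times and did not pass after adjustment over the 9871 probe sets. Without any 1 array it ranged from 2.55 to 3.21 at 100 min and from 1.97 to 2.66 at 400 min. WT has no unstimulated replicate 3, and the replicate 3 arrays read Jun lower in all 5 groups that have one. With replicate 3 as a batch block the difference was 2.63 at 100 min (adjusted p = 0.067) and 2.08 at 400 min (adjusted p = 0.0827), and neither passed. Within replicates 1 and 2 the difference was 2.48 at 100 min (SE 0.37, adjusted p = 0.215) and 1.76 at 400 min (SE 0.37, adjusted p = 0.186), with KO responses of 1.90 and 1.42 and WT responses of -0.58 and -0.34.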

How the results depend on the processing

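No called difference changed sign under any setting run. The count of member probe sets called in KO at 100 min was 0 and became 1 with the deposited scaling alone, a stricter filter on dim probe sets, the replicate block, replicate 3 as a batch block and a variance trend with robust eBayes, 2 within replicates 1 and 2 and 0 to 1 without 1 array. In KO at 400 min it was 2 and became 4 with the stricter filter, the batch block and the trend, 0 with only the arrays of the groups compared and 0 to 4 without 1 array. KO against WT it was 0 and became 1 at 100 min (replicate block, batch block, replicates 1 and 2, trend), 1 at 400 min (both blocks) and 1 averaged over the times (both blocks, replicates 1 and 2). Averaged over genotypes, the count at 100 min was 0 and became 1 (stricter filter, replicates 1 and 2), 2 (trend) and 0 to 1 without 1 array, and at 400 min it was 2 and became 1 with only the groups compared and 1 to 3 without 1 array. With only the groups compared, Fos and Junb (102363_r_at) in KO at 400 min had adjusted p = 0.0553 and 0.12. The causes were not tested.

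Counts over all probe sets also moved. In KO at 400 min they were 180 in the reported setting, 305 with the replicate block, 332 with the batch block, 276 within replicates 1 and 2, 290 with the trend, 52 with only the groups compared and 73 to 229 without 1 array. In KO at 100 min they were 57, 86, 94, 117, 86, 0 and 24 to 79 in the same order, and KO against WT at 400 min 36, 57, 85, 122, 73, 2 and 11 to 55. KO against WT at 100 min they were 4, 10, 16, 30, 14, 0 and 1 to 12. Averaged over genotypes at 400 min they were 148, 282, 311, 310, 250, 95 and 56 to 182. KO against WT averaged over the times they were 44, 72, 97, 196, 108, 44 and 10 to 82, and averaged over genotypes at 100 min 62, 98, 123, 155, 109, 39 and 27 to 85. The stricter filter gave 7 KO against WT at 100 min and 75 averaged over the times. In the 7 comparisons with 0 or 1 probe set in the reported setting, the counts reached at most 23.

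The replicate numbers as a whole did not meet the rule for paired samples, every same-number correlation over 0.1: deviations from the group means had correlations of -0.02 to 0.24 in 40 same-number pairs, over 0.1 in 11. The replicate 3 arrays did deviate together, with 10 of 10 pairs over 0.1, against 2 of 80 pairs of different numbers, and are therefore also fitted as a batch. Of the 17 arrays, 11 correlated best with an array of their own number in another group, all 5 of replicate 3 among them. With the replicate block, Jun passed in KO at 100 min (adjusted p = 0.00274) and 400 min (0.00473) and KO against WT at 100 min (0.00893), 400 min (0.0159) and averaged (0.00899), and Fos passed at 400 min averaged over genotypes (-1.42, adjusted p = 0.0235). The block changed no other call of a member.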
